A study of Bos taurus with 6 samples.

Results

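The genes described here encode the enzymes that remove superoxide and peroxides, the glutathione and thioredoxin systems that supply them with electrons, and the NRF2 regulators of that set, in bovine cumulus cells. Cumulus cells are the somatic cells that enclose the oocyte in the ovarian follicle. Members were chosen by gene symbol, from symbol families such as GPX, PRDX and GST and from single names such as GCLC, SOD1 and NFE2L2. This rule for membership takes no measured value as input, but it was set with earlier results of these data known. The rule found 52 probe sets for 37 genes, of 24016 probe sets and 9155 genes with 1 symbol in the table. Where a gene had several probe sets, the one with the highest mean signal was read, and that step does use measured values. Of the 19 symbols that the rule names singly, GLRX and TXNIP have no probe set under that single symbol in the annotation used here. A further 2 probe sets carry GSTT2 together with DDT and were left out for that reason.

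The 6 Affymetrix arrays came from pools of cumulus cells of crossbred cows (Bos indicus x Bos taurus), whose ovaries were taken at slaughter. In 3 arrays the pools came from complexes of follicles of 8 mm or more, labelled competent, and in the other 3 from complexes of follicles of 1 to 3 mm, labelled incompetent. Both groups were limited to complexes with an even, granular ooplasm and several layers of compact cumulus, and the cells were stripped by pipetting. The titles number the arrays of each group as biological replicates. The sources used here do not say how many animals or complexes went into a pool, and p-values therefore cover only the spread from pool to pool. All values are log2 RMA signals, and all differences are large-follicle minus small-follicle arrays.

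Superoxide dismutases turn superoxide into hydrogen peroxide, and catalase, glutathione peroxidases and peroxiredoxins remove that peroxide. Glutathione peroxidases draw on glutathione, which glutamate-cysteine ligase and glutathione synthetase make and glutathione reductase regenerates, while peroxiredoxins draw on thioredoxin and thioredoxin reductase. NADPH supplies both reductases. NRF2 drives many of these genes and is held in check by KEAP1. In the cumulus-oocyte complex, glutathione of the cumulus cells is known to support the glutathione content of the oocyte through gap junctions.

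In large-follicle arrays the transcripts of sulfiredoxin (SRXN1), the catalytic subunit of glutamate-cysteine ligase (GCLC), the lipid hydroperoxide peroxidase GPX4 and the peroxiredoxin PRDX2 were higher. Transcripts of glutathione reductase (GSR), the mitochondrial thioredoxin reductase TXNRD2, the quinone reductase NQO1, the superoxide dismutase SOD2 and the glutathione transferase GSTM3 were lower. SOD3, the extracellular superoxide dismutase, was lower on its brighter probe set only. Read from the probe set with the highest mean of each gene, 4 of the 37 genes rose, 6 fell and 27 did not pass limma's test (Benjamini-Hochberg adjusted p under 0.05 over all probe sets). These 10 genes are 27.0% of the members, beside 15.4% of all genes with 1 symbol read the same way and 12.9% of all probe sets. By direction, the background over genes was 7.08% higher and 8.30% lower. The groups did not overlap in 16 of the 37 genes, beside 36.4% of all genes. The median difference of the members was -0.04 and that of all genes 0.0067, so the list as a whole lay close to 0. The median size of the difference, sign disregarded, was 0.23 for the members and 0.18 for all genes. Only 1 of the 37 members had a mean signal below the median of all probe sets. These shares and sizes therefore set mostly bright genes beside a background that includes dim ones, and the part of signal level was not tested.

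**Figure D1:**
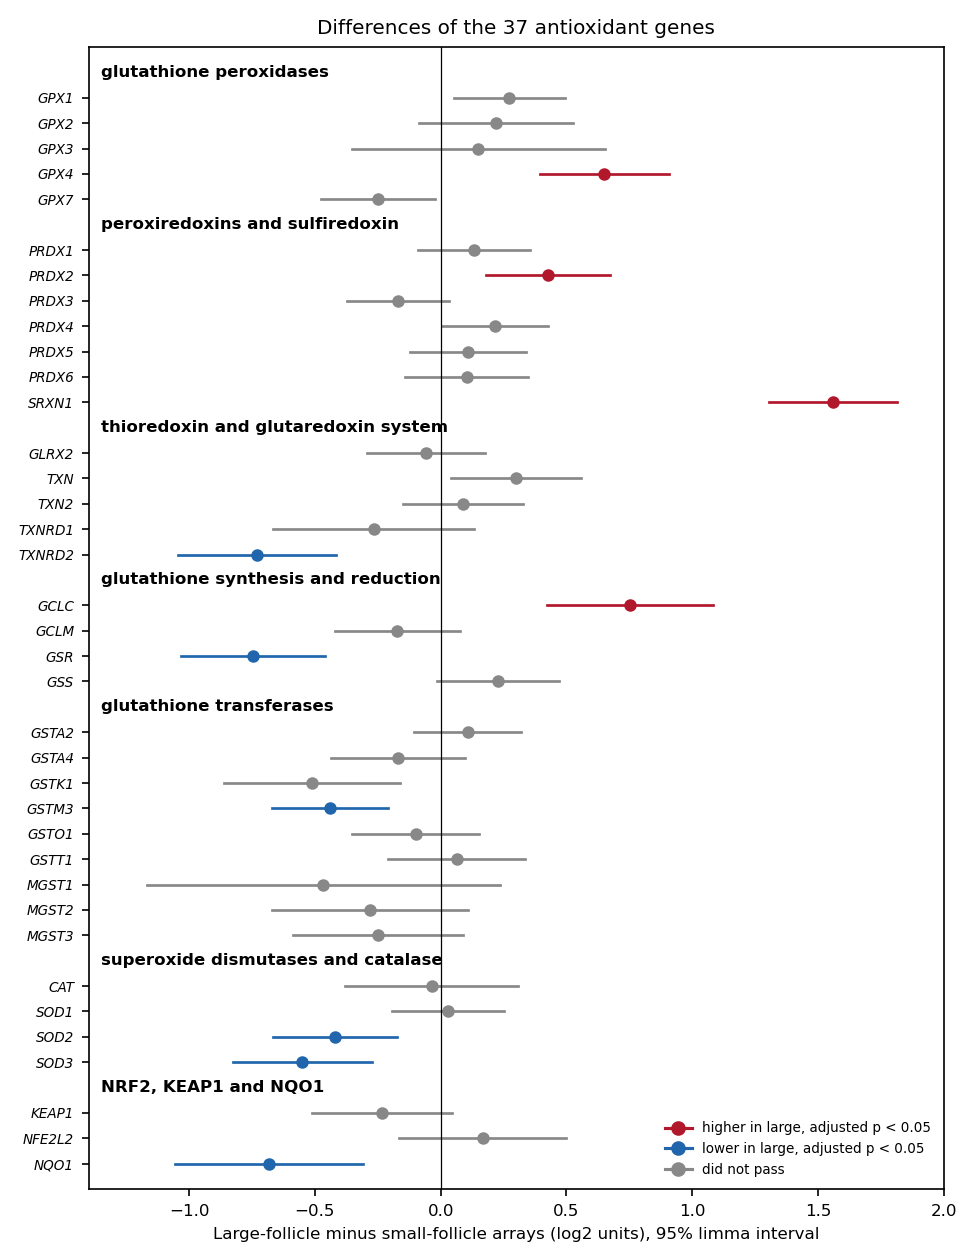
Large-follicle minus small-follicle difference (x axis, log2 units) of each of the 37 genes (y axis, by role), with points for the limma estimate and lines for its 95% interval over 3 arrays per group. SRXN1 stands apart at 1.56, and the other 36 genes lie between -0.75 and 0.75 on both sides of 0.

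The superoxide dismutases and catalase gave 2 genes that fell and 2 that did not pass. SOD2, the manganese enzyme of the mitochondrial matrix, read 9.92, 9.97 and 9.72 in large-follicle arrays, against 10.40, 10.23 and 10.24 in small-follicle arrays. Every large-follicle array lay below every small-follicle array, and the difference was -0.42 ± 0.11 (SE), 1.34-fold lower (limma adjusted p = 0.0377). SOD3, the extracellular enzyme, read 5.72, 5.46 and 5.71 in large-follicle arrays, against 6.35, 6.13 and 6.06 in small-follicle arrays. It fell by 0.55 ± 0.12, 1.46-fold (limma adjusted p = 0.0215), at a signal near the median of all probe sets (5.67). Its other, dimmer probe set read 4.64, 4.71 and 4.89 in large-follicle arrays, against 4.72, 4.55 and 4.30 in small-follicle arrays, with the opposite sign and no call (0.22 ± 0.13). The direction of SOD3 thus depended on the probe set, and the mean of both read -0.16 without a call (limma adjusted p = 0.428).

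SOD1, the cytosolic copper-zinc enzyme, read 12.23, 12.26 and 12.17 in large-follicle arrays, against 12.07, 12.28 and 12.22 in small-follicle arrays. The groups overlapped, and the 95% interval of the difference ran from -0.19 to 0.25. Catalase (CAT), the peroxisomal peroxide-splitting enzyme, read 10.50, 10.67 and 10.07 in large-follicle arrays, against 10.46, 10.46 and 10.43 in small-follicle arrays. The 3 small-follicle arrays lay within 0.03 of each other while large-follicle replicate 3 stood lowest, and the interval ran from -0.38 to 0.31. Leaving out large-follicle replicate 3 gave 0.14 for CAT, still without a call.

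Of the 5 glutathione peroxidases 1 rose and 4 did not pass. GPX4, which reduces lipid hydroperoxides inside membranes, read 12.55, 12.67 and 12.49 in large-follicle arrays, against 11.75, 12.06 and 11.95 in small-follicle arrays. All large-follicle arrays lay above all small-follicle arrays, by more than the spread within either group. The difference was 0.65 ± 0.11, 1.57-fold higher (limma adjusted p = 0.00878), and the call held in each of the 6 fits that left out 1 array (0.57 to 0.72).

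GPX1, the abundant cytosolic enzyme that reduces hydrogen peroxide, read 13.01, 13.14 and 13.18 in large-follicle arrays, against 12.85, 12.76 and 12.90 in small-follicle arrays. Its groups did not overlap, at a difference of 0.27 ± 0.10 that did not pass (limma adjusted p = 0.109), and its dimmer probe set read 0.38 ± 0.14, also without a call. The array-wise difference of GPX4 minus GPX1 averaged -0.54 ± 0.13 in large-follicle arrays and -0.92 ± 0.20 in small-follicle arrays (SD, n = 3 each), with no overlap (2-sided exact permutation test, p = 0.1, which is the lowest value possible with 3 arrays per group). This pair and those of the array-wise differences below were chosen after the values were seen (exact permutation test, Benjamini-Hochberg adjusted p of 0.1125 to 0.2). They are descriptions and lend no support of their own. GPX7, a peroxidase of the endoplasmic reticulum, read lower in every large-follicle array (-0.25 ± 0.10, limma adjusted p = 0.144). GPX2, known from the gut lining, read 0.22 ± 0.13, and GPX3, the secreted plasma form, 0.15 ± 0.22. GPX3 had replicate 3 highest in both groups, at 7.81 in the large-follicle array and 7.76 in the small-follicle array, against 7.03 to 7.42 in the other 4 arrays.

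Among the 6 peroxiredoxins and sulfiredoxin, 2 genes rose and 5 did not pass. SRXN1 repairs peroxiredoxins that have been overoxidised at their active cysteine. It read 5.81, 6.08 and 5.80 in large-follicle arrays, against 4.26, 4.34 and 4.41 in small-follicle arrays. The gap between the groups, 1.39 between the nearest arrays, was many times the spread within either. SRXN1 rose by 1.56 ± 0.11, 2.95-fold (limma adjusted p = 0.000708), the only one of the 37 genes with a difference of at least 2-fold. The small-follicle mean of 4.34 is a low signal, between the lower quartile (3.83) and the median of all probe sets, so the size is less certain than the direction. It remained called in all 16 alternative settings that kept its probe set, between 1.35 and 1.61.

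PRDX2, a cytosolic peroxiredoxin, read 11.88, 11.84 and 11.99 in large-follicle arrays, against 11.32, 11.50 and 11.61 in small-follicle arrays. It rose by 0.43 ± 0.11, 1.34-fold (limma adjusted p = 0.0365). PRDX1, its closest cytosolic relative, read 12.69, 12.72 and 12.86 in large-follicle arrays, against 12.59, 12.71 and 12.57 in small-follicle arrays, and did not pass (interval -0.09 to 0.36). PRDX2 minus PRDX1 averaged -0.85 ± 0.04 in large-follicle arrays and -1.15 ± 0.16 in small-follicle arrays (SD, n = 3 each, no overlap, exact permutation p = 0.1). Red blood cells are rich in PRDX2, and the erythrocyte markers HBB and ALAS2 averaged 3.73 and 3.80 in large-follicle arrays, against 3.75 and 3.81 in small-follicle arrays. All 4 means lie under the lower quartile of probe sets. HBA was higher in every large-follicle array (5.32 on average, against 4.92 in small-follicle arrays, limma adjusted p = 0.0851). Of the 6 measured erythrocyte markers 0 passed in limma and 1, HBA, had an unadjusted p under 0.05, and its part in the PRDX2 result was not tested.

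PRDX4, the peroxiredoxin of the endoplasmic reticulum, was higher in every large-follicle array without a call (0.22 ± 0.09, limma adjusted p = 0.176), and PRDX5, which is found in several compartments, read 0.11 ± 0.10. PRDX3, the mitochondrial peroxiredoxin, read 11.05, 11.09 and 10.96 in large-follicle arrays, against 11.21, 11.19 and 11.21 in small-follicle arrays. The groups did not overlap, but the difference of -0.17 ± 0.09 did not pass. The other, dimmer PRDX3 probe set read 7.72, 7.80 and 7.50 in large-follicle arrays, against 8.44, 8.32 and 8.28 in small-follicle arrays, and fell by 0.67 ± 0.11 (limma adjusted p = 0.00744). The mean of both PRDX3 probe sets passed, at -0.42 (limma adjusted p = 0.0233).

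PRDX6 reduces phospholipid peroxides with a single active cysteine, and its 4 probe sets differed from one another. The brightest read 10.53, 10.65 and 10.59 in large-follicle arrays, against 10.40, 10.40 and 10.66 in small-follicle arrays (0.10 ± 0.11, no call). The next, almost as bright, read 10.15, 10.21 and 10.12 in large-follicle arrays, against 10.71, 10.62 and 10.78 in small-follicle arrays. That one fell by 0.54 ± 0.09 (limma adjusted p = 0.0085), and a dimmer one by 0.63 ± 0.13 (limma adjusted p = 0.0151). The dimmest read -0.21 ± 0.13 without a call. The difference between the 2 brightest probe sets, second minus first, averaged -0.43 ± 0.05 in large-follicle arrays and 0.22 ± 0.10 in small-follicle arrays (SD, n = 3 each, no overlap, exact permutation p = 0.1). No direction can be given for PRDX6.

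**Figure D2:**
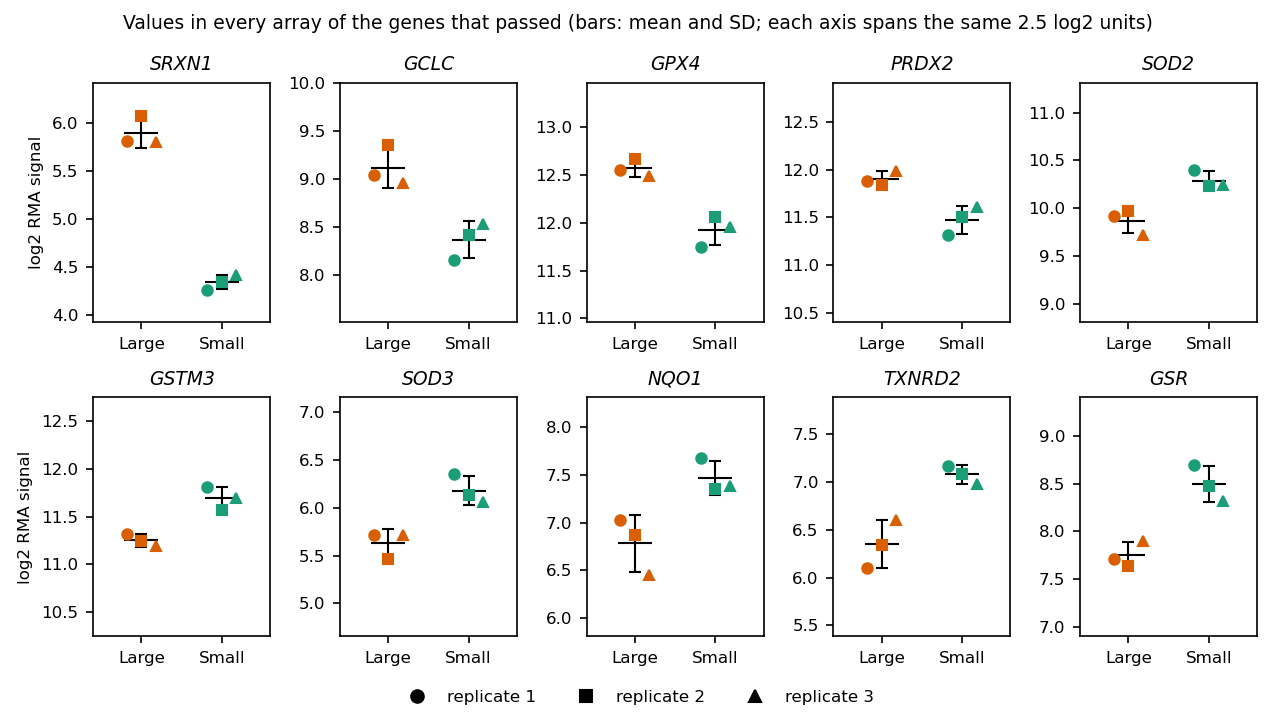
Log2 RMA signal (y axis, the same span of log2 units in every panel) in each array of the 10 genes that passed, large-follicle arrays left and small-follicle arrays right, with symbols for replicate numbers and bars for the mean and SD. In all 10 panels the groups do not overlap, and the gap is widest for SRXN1.

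In the thioredoxin and glutaredoxin system 1 gene fell and 4 did not pass. TXNRD2, the selenoenzyme that reduces thioredoxin in mitochondria, read 6.10, 6.34 and 6.60 in large-follicle arrays, against 7.17, 7.08 and 6.98 in small-follicle arrays. It fell by 0.73 ± 0.14, 1.66-fold (limma adjusted p = 0.0122), and stayed called without any 1 array (-0.86 to -0.61). Its cytosolic counterpart TXNRD1 read 9.37, 9.35 and 9.38 in large-follicle arrays, against 9.81, 9.89 and 9.20 in small-follicle arrays. Small-follicle replicate 3 lay below all large-follicle arrays, and the difference of -0.27 ± 0.17 did not pass. Without that array it was -0.48 with a call (limma adjusted p = 0.0278), so 1 array decided the result for TXNRD1. The array-wise difference of TXNRD2 minus TXNRD1 overlapped between the groups (-3.02 ± 0.25 in large-follicle arrays and -2.56 ± 0.30 in small-follicle arrays, SD, n = 3 each, exact permutation p = 0.2).

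TXN, the cytosolic thioredoxin, read 12.93, 12.86 and 12.98 in large-follicle arrays, against 12.64, 12.79 and 12.44 in small-follicle arrays. It was higher in every large-follicle array, by 0.30 ± 0.11, without passing (limma adjusted p = 0.13). TXN2, the mitochondrial thioredoxin, read 0.09 ± 0.10, and GLRX2, a mitochondrial glutaredoxin, -0.06 ± 0.10.

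Of the 4 genes of glutathione synthesis and reduction, 1 rose, 1 fell and 2 did not pass. GCLC, which catalyses the first and rate-limiting step of glutathione synthesis, read 9.04, 9.36 and 8.96 in large-follicle arrays, against 8.15, 8.42 and 8.53 in small-follicle arrays. It rose by 0.75 ± 0.14, 1.69-fold (limma adjusted p = 0.0129), in every fit without 1 array as well (0.63 to 0.84). GCLM, the modifier subunit of the same enzyme, read 7.25 to 7.40 in large-follicle arrays and 7.38 to 7.66 in small-follicle arrays, with a difference of the other sign that did not pass (-0.17 ± 0.11). GCLC minus GCLM averaged 1.80 ± 0.25 in large-follicle arrays and 0.88 ± 0.19 in small-follicle arrays (SD, n = 3 each), with no overlap (exact permutation p = 0.1).

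GSR, which regenerates glutathione from its oxidised form with NADPH, read 7.71, 7.64 and 7.90 in large-follicle arrays, against 8.69, 8.48 and 8.32 in small-follicle arrays. It fell by 0.75 ± 0.13, 1.68-fold (limma adjusted p = 0.00795), the lowest difference among the 37 genes, and held without any 1 array (-0.84 to -0.65). GSS, which completes glutathione synthesis, read 0.23 ± 0.11 and did not pass (limma adjusted p = 0.217). GSR minus GSS averaged 1.16 ± 0.15 in large-follicle arrays and 2.13 ± 0.22 in small-follicle arrays (SD, n = 3 each, no overlap, exact permutation p = 0.1).

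The 9 glutathione transferases, which couple glutathione to reactive compounds or reduce peroxides, gave 1 gene that fell and 8 that did not pass, and 7 of the 9 were negative in sign. GSTM3 read 11.32, 11.24 and 11.19 in large-follicle arrays, against 11.81, 11.57 and 11.69 in small-follicle arrays, and fell by 0.44 ± 0.10, 1.36-fold (limma adjusted p = 0.0261). GSTK1, the kappa-class enzyme of mitochondria and peroxisomes, was lower in every large-follicle array (-0.51 ± 0.15) and lay just outside the threshold (limma adjusted p = 0.0638). Its dimmer probe sets read -0.36 and 0.06. The microsomal transferases MGST1, MGST2 and MGST3 read -0.47 ± 0.31, -0.28 ± 0.17 and -0.25 ± 0.15. MGST1 had the widest spread between arrays of 1 group among the members, with 7.19, 6.58 and 7.58 in large-follicle arrays, against 8.02, 7.74 and 6.99 in small-follicle arrays. GSTA4, which acts on lipid aldehydes, GSTO1 and GSTT1 read -0.17, -0.10 and 0.06.

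GSTA2, an alpha-class transferase, had 5 probe sets. The 4 bright ones averaged 13.36 to 14.14 in large-follicle arrays, close to the highest value on any array (14.39), against 13.31 to 14.04 in small-follicle arrays, with differences of 0.05 to 0.23 and no call. The brightest read 14.05, 14.17 and 14.21 in large-follicle arrays, against 14.00, 14.02 and 14.09 in small-follicle arrays. The fifth, far dimmer, read 7.16, 6.84 and 7.00 in large-follicle arrays, against 8.12, 8.41 and 8.25 in small-follicle arrays, and fell by 1.26 ± 0.12 (limma adjusted p = 0.00125). Alpha-class transferases are a family of near-identical copies, so these probe sets can read more than 1 gene, and GSTA2 is given as uncertain.

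**Figure D3:**
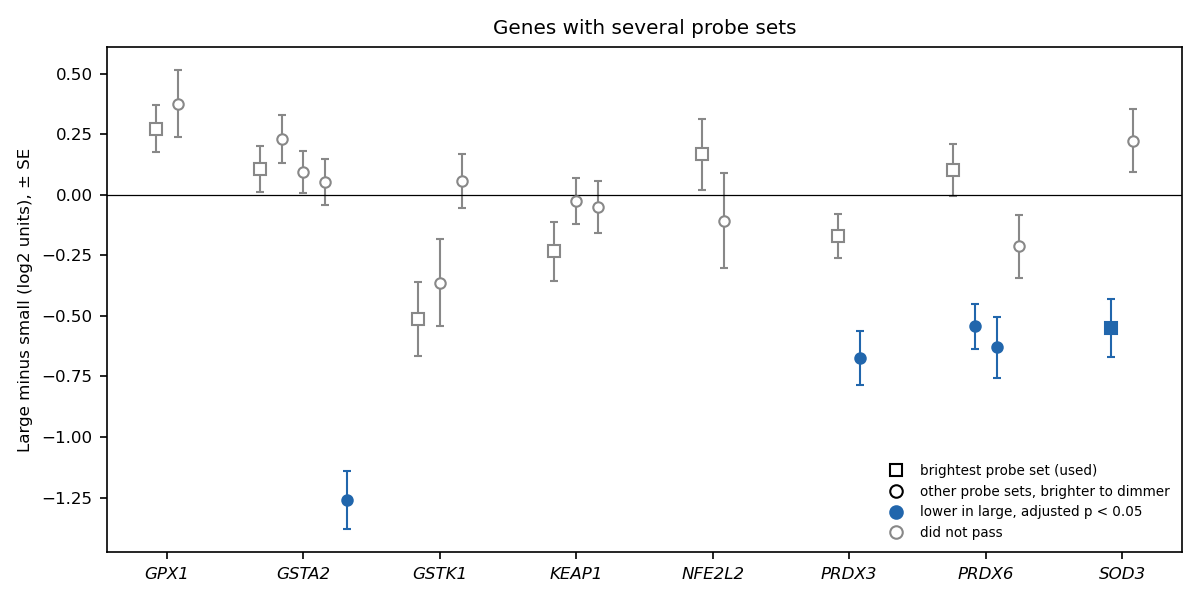
Large-follicle minus small-follicle difference (y axis, log2 units, ± SE from limma) of every probe set of the 8 genes with more than 1, ordered within a gene by mean signal. Squares are the brightest probe sets, filled blue marks passed, and GSTA2, PRDX3 and PRDX6 each have a dimmer probe set that fell while the brightest did not pass.

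The regulators did not pass. NFE2L2, which encodes NRF2, read 9.82, 10.03 and 9.46 in large-follicle arrays, against 9.54, 9.65 and 9.62 in small-follicle arrays (interval -0.17 to 0.50). KEAP1 read 8.58, 8.52 and 8.91 in large-follicle arrays, against 8.88, 8.97 and 8.86 in small-follicle arrays (interval -0.51 to 0.05). Large-follicle replicate 3 stood apart from the other large-follicle arrays in both, low for NFE2L2 and high for KEAP1. The dimmer KEAP1 probe sets read -0.03 ± 0.09 and -0.05 ± 0.11, without a call. The dimmer NFE2L2 probe set had the opposite sign to the brightest, also without a call (-0.11 ± 0.20). NQO1, which reduces quinones and is a textbook target of NRF2, read 7.03, 6.87 and 6.45 in large-follicle arrays, against 7.67, 7.35 and 7.38 in small-follicle arrays. It fell by 0.68 ± 0.16, 1.61-fold (limma adjusted p = 0.0301).

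Grouped by textbook knowledge, after their values were known, 8 members were taken as NRF2 targets, and their calls went both ways. The glutathione transferases, of which GSTM3 fell, and the glutathione peroxidases, of which GPX4 rose, were not among the 8. The balance of calls therefore depends on the choice. SRXN1 and GCLC rose, GSR and NQO1 fell, and GCLM, TXNRD1, PRDX1 and TXN did not pass. GLRX2, PRDX3, SOD2, TXN2 and TXNRD2 were taken as the mitochondrial members, without GSTK1 and PRDX5, which are found in more than 1 compartment. These 5 genes gave 2 that fell (SOD2 and TXNRD2) and 3 that did not pass, with a median difference of -0.17. GPX4, which rose, GSR, which fell, and GPX1, which did not pass, were not counted with them. The result for this grouping thus depends on which members are taken as mitochondrial. Among the 6 selenoenzymes, GPX4 rose, TXNRD2 fell, and GPX1, GPX2, GPX3 and TXNRD1 did not pass. These groupings are descriptions and carry no test.

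The calls of 5 genes held in all 6 fits without 1 array (SRXN1, GPX4, GCLC, GSR and TXNRD2), and those of the other 5 did not. Of those 6 fits PRDX2 was called in 1, without small-follicle replicate 3, and read 0.35 to 0.46 in the others. GSTM3 was called in 1, without small-follicle replicate 2, and read -0.48 to -0.38 in the others. NQO1 was called in 1, without large-follicle replicate 1, and read -0.74 to -0.52 in the others. SOD3 was not called without large-follicle replicate 2 (-0.47), small-follicle replicate 1 (-0.47) or small-follicle replicate 2 (-0.58), and SOD2 in none of the 6 fits (-0.47 to -0.35). With same-numbered arrays as a replicate block, PRDX2 (limma adjusted p = 0.071), GSTM3 (0.0619) and SOD2 (0.0788) did not pass. Over the whole table the same fits called 787 to 1142 probe sets higher and 828 to 1337 lower, against 1374 higher and 1720 lower with all arrays.

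Other genes of the same pathways came from 6 lists of 109 genes, of which 81 were measured, and 9 rose, 6 fell and 66 did not pass. Their share of calls was 18.5%, beside 15.4% of all genes. With the 3'-minus-5' index, a sign of RNA quality that differed between the groups, as a covariate, 2 of these 15 genes passed, ME3 and NNT, and the other 13 kept their sign without a call. Without 1 array, 10 to 13 of the 81 genes passed. MAOA passed in none of those 6 fits, and AKR1A1, BLVRB, MTHFD2, SELENOK and TXNDC5 in some of them. Among 13 genes of NADPH supply, 1 rose, 3 fell and 9 did not pass. NNT, the transhydrogenase that makes NADPH in mitochondria, read 9.60, 9.76 and 9.79 in large-follicle arrays, against 10.93, 10.63 and 10.92 in small-follicle arrays. It fell by 1.11 ± 0.12 (limma adjusted p = 0.00153). The mitochondrial isocitrate dehydrogenase IDH2 fell by 0.77 ± 0.10 and MTHFD2, of mitochondrial folate metabolism, by 0.51 ± 0.09. The mitochondrial malic enzyme ME3 rose by 1.10 ± 0.11, at a low signal (5.32 in large-follicle arrays and 4.22 in small-follicle arrays). Read as the mean of all probe sets of a gene, ME3 was 0.50 (limma adjusted p = 0.0262) and NNT -0.94 (0.00165), both still called. MTHFD2 then read -0.145 without a call (limma adjusted p = 0.343).

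Among 14 measured partners and classic targets of NRF2, 5 rose, 1 fell and 8 did not pass. Small MAF proteins pair with NRF2 and with its competitor BACH1 on DNA. The transcripts of 2 of them rose, MAFF by 1.04 ± 0.14 and MAFG by 0.53 ± 0.10. MAFK and BACH1, also on the list, were not measured. OSGIN1, an oxidative stress-induced gene, rose by 0.64 ± 0.11, the aldehyde reductase AKR1A1 by 0.51 ± 0.11 and the biliverdin reductase BLVRB by 0.41 ± 0.10. EPHX1, the microsomal epoxide hydrolase, fell by 1.23 ± 0.16 (limma adjusted p = 0.00302). Haem oxygenase HMOX1 (0.33 ± 0.09) and the ferritin chain FTL (0.34 ± 0.10) lay just outside the threshold.

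Of 17 thioredoxin-like and repair genes, ERO1A, the oxidase that drives disulphide formation in the endoplasmic reticulum, rose by 1.54 ± 0.25. TXNDC5, a disulphide isomerase of the same compartment, fell by 0.58 ± 0.13, and 15 did not pass. Read as the mean of all probe sets of a gene, ERO1A was 0.98 (limma adjusted p = 0.00715), and TXNDC5 -0.35 without a call (0.0701). Of 15 genes of cysteine and glutathione turnover, 14 did not pass, and CBS, the first enzyme of transsulphuration, fell by 0.71 ± 0.12 at a low signal (4.01 in large-follicle arrays and 4.72 in small-follicle arrays). The list of selenoprotein supply and of selenoproteins other than the members had 12 measured genes. Only SELENOK, a selenoprotein of the endoplasmic reticulum, passed there, at 0.45 ± 0.10. MAOA, a monoamine oxidase that releases hydrogen peroxide, was the only one of 10 peroxide and superoxide sources, at 0.55 ± 0.13.

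**Figure D4:**
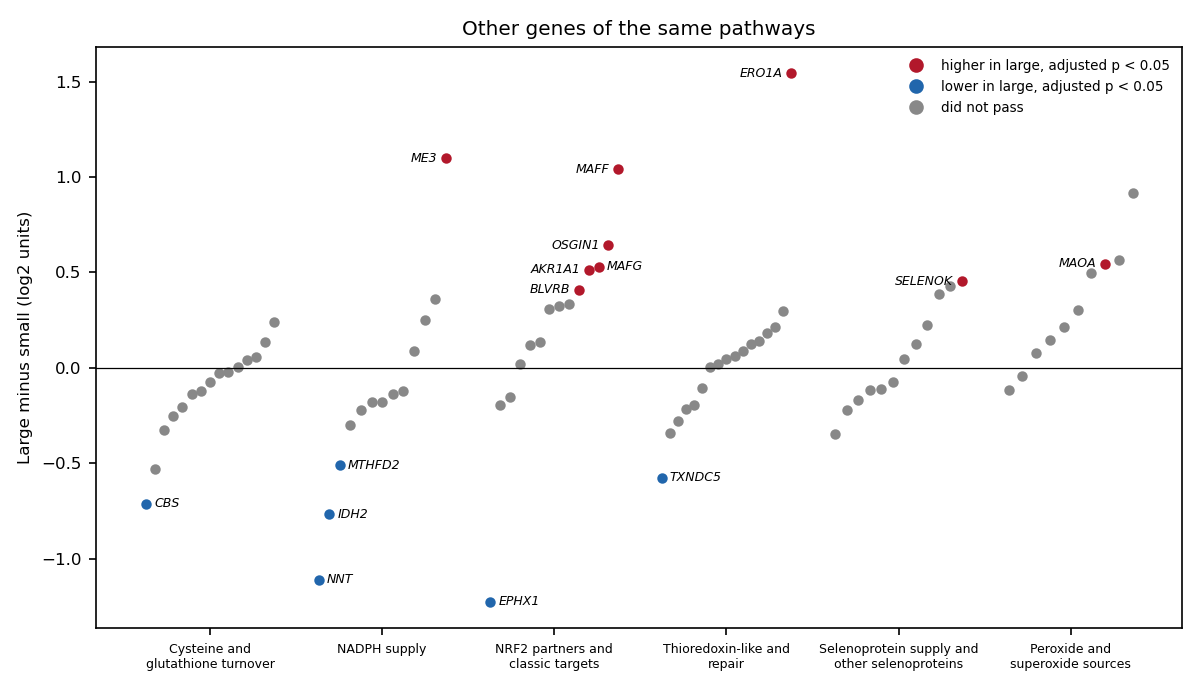
Large-follicle minus small-follicle difference (y axis, log2 units) of each of the 81 measured genes of the 6 pathway lists, ordered by value within a list, with the 15 genes that passed named. ERO1A is highest at 1.54 and EPHX1 lowest at -1.23.

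Markers of the arrays' cells were read beside these results. The list of granulosa and cumulus markers averaged 10.59 to 10.75 in large-follicle arrays and 10.02 to 10.20 in small-follicle arrays, and it differed between the groups: of 11 measured genes 6 rose, 1 fell and 4 did not pass. The aromatase gene CYP19A1 rose by 2.14, CYP11A1, which starts steroid synthesis, by 1.72, the inhibin subunits INHBA and INHA by 1.14 and 0.42, the nuclear receptor gene NR5A2 by 0.70 and the FSH receptor FSHR by 0.56, while GATM fell by 1.20. FOXL2, a granulosa transcription factor, averaged 4.89 in large-follicle arrays and 4.58 in small-follicle arrays, below the median of all probe sets (5.67), and the other 10 markers lay above it. The part of this shift in the antioxidant results was not tested. All 13 measured leukocyte markers were higher in sign in large-follicle arrays, and 2 rose (LCP1 and CORO1A). Their summed linear signal ran from 358 to 877 in large-follicle arrays and from 290 to 499 in small-follicle arrays, so the groups overlapped. The defining marker PTPRC averaged 3.57 in large-follicle arrays and 3.49 in small-follicle arrays, both under the lower quartile. CD14 and CD68, the other defining markers, averaged 5.54 and 5.16 in large-follicle arrays, against 4.52 and 4.37 in small-follicle arrays, all above it. The groups overlapped for both, and neither passed (limma adjusted p = 0.282 and 0.288). With the leukocyte mean as a covariate, 2 members were called higher (SRXN1 and GPX4) and 3 lower (GSR, TXNRD2 and NQO1), and GCLC (0.72, limma adjusted p = 0.0517), PRDX2, GSTM3, SOD2 and SOD3 did not pass. Oocyte markers (7 measured) and theca and stroma markers (9 measured) held 0 calls in limma, with 0 and 2 genes at an unadjusted p under 0.05. Of 7 endothelial markers 1 fell, TEK, at a low signal (3.44 in large-follicle arrays and 4.01 in small-follicle arrays). By sign, 5 of the 7 were positive and 2 negative. PECAM1 and VWF were higher in every large-follicle array without passing (0.19 and 0.46, limma adjusted p = 0.258 and 0.0893), VWF at an unadjusted p under 0.05. Some theca and stroma markers were bright, with INSL3 at 9.41 in large-follicle arrays and 9.38 in small-follicle arrays. CYP17A1, another defining marker, was dim, at 4.92 in large-follicle arrays and 4.79 in small-follicle arrays, both below the median of all probe sets. STAR, also defining, averaged 5.85 in large-follicle arrays and 4.94 in small-follicle arrays, with overlap and without passing (limma adjusted p = 0.206). PDGFRA was higher in every large-follicle array (1.37, limma adjusted p = 0.0683), and COL3A1 read -1.04 with overlap (0.201). Of these 9 markers, 5 were positive and 4 negative in sign, and their part in the antioxidant results was not tested. In pooled cells, fewer cells of a type and less RNA per cell cannot be told apart.

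The 3'-minus-5' index, averaged over 6 bovine control transcripts, also moved with the groups. It read 2.15, 1.77 and 2.01 log2 units in large-follicle arrays, against 2.68, 2.53 and 2.16 in small-follicle arrays (difference -0.48, 2-sided exact permutation test, p = 0.1). The groups barely separated, by 0.01 between the nearest arrays. A transcript labelled GST is among the 6 controls, and the index without that transcript was not computed. With the index as a covariate, SRXN1 was the 1 member still called (1.35, limma adjusted p = 0.033, between 0.000234 and 0.033 over its alternatives). The other 9 genes kept their sign in that fit, at 0.51 for GPX4, 0.40 for GCLC, 0.29 for PRDX2, -0.49 for GSR, -0.69 for TXNRD2, -0.52 for NQO1, -0.38 for SOD2, -0.28 for SOD3 and -0.37 for GSTM3.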

How the data were processed

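RMA is the method that the submitters' processing notes name for the deposited log2 signals, 1 per probe set. The sources used here name no software, version or setting. Of the 24128 probe sets, 112 are controls and did not enter the tests. Array medians lay between 5.64 and 5.68. RMA gives no detection call and shrinks differences at low signal, and the number of arrays limits the precision. Probe sets were named through the platform annotation, and all 52 member probe sets matched RefSeq (ARS-UCD2.0) by gene identifier without a change of symbol. Probe sets with several symbols (86) or none (10638) stay in the totals without a name.

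Differences were fitted on the whole table with lmFit and eBayes of limma 3.58.1 under R 4.3.3 (no block, 2-sided), with Benjamini-Hochberg adjustment over 24016 probe sets at 0.05. SE and 95% intervals are from that fit. Each gene is read from its probe set with the highest mean over the 6 arrays. All members are named, with values in every array for those that passed, those with a passing dimmer probe set (the brightest and the passing one for GSTA2), and a fixed set of 14. The members, the pathway and marker lists, and the alternatives were chosen with earlier results of these data known. The 9 array-wise differences between 2 probe sets were chosen after the values were seen, and each was compared by an exact permutation test over the 6 arrays (Benjamini-Hochberg adjusted p of 0.1125 to 0.2). Same-numbered arrays did not deviate together: the correlations of their deviations from the group means were -0.0019, -0.054 and -0.34, so the numbers were not used as pairs. The labels' numbers entered 1 alternative as a block. A single simulated table with planted differences was used to check that the fit ran, and its outcome is not reported here. No promoter or protein sequences were at hand, so the promoter motif description set out in the design was not run. Python 3.11.15 with matplotlib 3.10.9 drew the figures.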

Additional observations from a re-analysis of the deposited data

How the results depend on the processing

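Among the 10 genes that passed, 0 changed sign in any of the 17 alternatives, which the lack of overlap between the groups fixes for the fits without 1 array. Member counts stayed within 3 to 5 higher and 4 to 7 lower with filters, scalings, the trended prior, array weights, probe set rules and the replicate block. With the replicate block, 3 members were higher and 4 lower (PRDX2, GSTM3 and SOD2 lost their calls), and 1034 probe sets of the table were lower. Without 1 array, 3 to 4 members were higher and 2 to 4 lower, 787 to 1142 probe sets of the table higher and 828 to 1337 lower, the median member difference was -0.065 to 0.0067, and the difference in the 3'-minus-5' index was -0.63 to -0.37. With that index as a covariate, limma called 1 member higher and 0 lower (4 and 4 at an unadjusted p under 0.05), 99 probe sets of the table were higher and 116 lower, and 2 pathway genes passed (ME3 and NNT). With the leukocyte markers as a covariate, 2 members were higher and 3 lower (GCLC, PRDX2, GSTM3, SOD2 and SOD3 lost their calls), against 770 and 929 in the table. The mean of all probe sets of a gene gave a median member difference of -0.10 and turned the sign of GSTA2 (-0.16) and PRDX6 (-0.32), whose probe sets disagree. It also ended the call of SOD3 (-0.16) and gave one to PRDX3 (-0.42), at the same count of lower members. With the index as a covariate, genes that did not pass changed sign: GPX3 (-0.38), GSTO1 (0.067), MGST1 (0.47), PRDX5 (-0.052), PRDX6 (-0.12), SOD1 (-0.051) and TXNRD1 (0.16). So did SOD1 (-0.03 to 0.075), GLRX2 (-0.11 to 0.0067), CAT (-0.17 to 0.14), GPX3 (-0.022 to 0.37) and GSTT1 (-0.018 to 0.16) without 1 array. The cause was not tested. Alternatives for the pathway lists and for the index were added after seeing the data. Signal over background is not known for RMA values, which limits what can be said of dim probe sets.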
